A study of Mus musculus with 11 samples.

Results

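The genes described here are 6 chemokine genes of the mouse brain, 4 ligands (Cxcl12, Cx3cl1, Cxcl14 and Cxcl16) and 2 receptors (Cxcr4 and Cxcr7), among 36666 genes counted in the cerebrum of Polg mutator mice and control littermates. They were chosen by name with their mutator to control differences in these same mice already known, so their gene-level values are a description and carry no p-value. Where the fit across all genes called one of them, that is given only as a count beside the share of all genes called, and nothing is read from it. For Cxcl12, the 11 exon bins of the gene, of 358756 bins in all, were described as well. An exon bin is a stretch of exon that is shared by one and the same set of annotated transcripts.

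Poly(A)+ RNA was sequenced from 11 male C57/Bl6 mice aged 1 year. The 7 mutators (D257A/D257A) were homozygous for a knock-in of Polg, the polymerase of mitochondrial DNA, which removes its proofreading activity. The 4 controls were 3 WT/WT mice and 1 WT/D257A mouse, which carried 1 knock-in allele. The knock-in is constitutive, so that it is carried by every cell type throughout life, and the labels name no treatment. Gene counts covered all 11 mice, and exon bin counts covered the 7 mutators and the 3 WT/WT mice. Every sample was a separate mouse.

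Chemokines are small secreted or membrane-bound proteins that guide cells by way of G protein-coupled receptors. Cxcl12 signals through Cxcr4 and is taken up by the scavenger receptor Cxcr7, and in the adult brain it is made by endothelial cells, meningeal cells and some neurons. Cx3cl1 is a membrane-anchored chemokine of neurons whose receptor, Cx3cr1, is carried by microglia. Cxcl14 is found in subsets of neurons, and Cxcl16 is a transmembrane chemokine and scavenger receptor.

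Total gene counts ranged from 28249345 (WT/WT mouse 246) to 121182250 (WT/WT mouse 205). In mutator mouse 248 the table held 3.00 counts per aligned read that the authors listed, against 0.744 to 0.775 in the other 10 mice, and its values are therefore also given left out where they matter. Summed markers of neurons (5180 to 5668 CPM over all mice, where CPM is the count scaled to library size with TMM factors), astrocytes (3469 to 4068 CPM) and oligodendrocytes (4464 to 6287 CPM) matched the cerebral label. Polg mRNA was 66.1 ± 2.98 CPM in controls (SD, n = 4) and 63.9 ± 4.18 CPM in mutators (SD, n = 7), which does not check the genotype because the knock-in is a point mutation.

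Cxcl12 (ENSMUSG00000061353, chr6:117118553-117131385, plus strand, build NCBIM37, mm9) has 4 annotated transcripts that share their first exons and differ at the 3′ end. Cxcl12-001 runs on from the third exon and encodes 89 residues, Cxcl12-002 splices to a far last exon and encodes 93 residues, and Cxcl12-003 splices to a longer last exon that contains that of Cxcl12-002 and encodes 119 residues. Cxcl12-004 is a non-coding transcript that retains intron sequence. The sequences at the point of divergence are shown because the exon results below turn on it. The lower-case bases are the last 15 bases of bin 5, which all transcripts share (chr6:117123582-117123596), and the capitals are the first 15 bases that follow, at chr6:117123597, chr6:117128601 and chr6:117126104 respectively.
Cxcl12-001: gaaagctttaaacaaGTAAGCACAACAGCC
Cxcl12-002: gaaagctttaaacaaGAGGCTCAAGATGTG
Cxcl12-003: gaaagctttaaacaaGGGGCGCAGAGAAGA
The 3 coding transcripts leave the shared sequence with different stretches. The non-coding Cxcl12-004 runs on as Cxcl12-001 does, so a read across that boundary cannot be told apart between them, and the files used here hold counts per bin and none per junction.

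**Figure D1:**
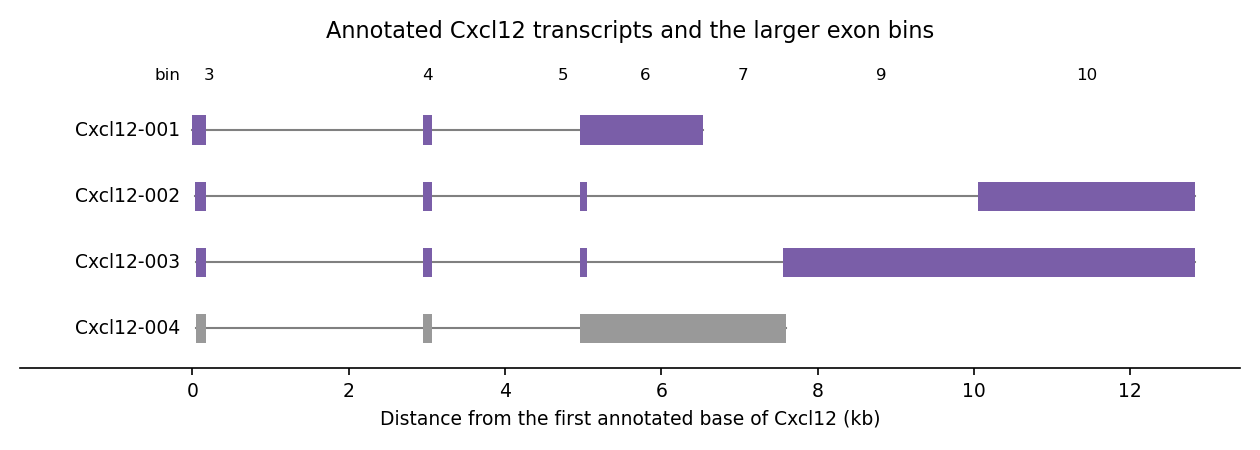
The 4 annotated transcripts of Cxcl12 are drawn to scale against the distance in kb from the first annotated base, with boxes for exons, lines for introns and the non-coding transcript in gray. Numbers above mark the larger exon bins, and bin 6 (1491 bases) lies at the end of Cxcl12-001 while bins 9 and 10 (2455 and 2784 bases) make up the far last exons.

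Cxcl12 was higher in the mutators. The controls held 64.8, 65.2 and 49.8 CPM in WT/WT mice 205, 239 and 246 and 67.8 CPM in the WT/D257A mouse. The mutators ranged from 85.7 CPM in mouse 207 through a median of 136 CPM to 184.6 CPM in mouse 248. Every mutator was above every control, and the WT/D257A mouse lay beside the WT/WT mice. The control mean was 61.9 ± 8.20 CPM (SD, n = 4). The mutator mean was 141 ± 32.7 CPM (SD, n = 7), which was 2.28 times as high. On the log2 scale the fitted difference was 1.19 ± 0.20 (SE). Without mouse 248 the mutator mean was 134 ± 29.1 CPM (SD, n = 6). The spread among mutators was also wider, with a coefficient of variation of 23.1% against 13.2%. By fold change Cxcl12 stood at rank 63 of 17983 genes tested, and the median over all those genes was 0.0014.

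The receptors of Cxcl12 gave overlapping values in mutators and controls. Cxcr4 (ENSMUSG00000045382, chr1:130484776-130488870, minus strand) held 1.80, 1.12 and 1.16 CPM in the WT/WT mice, 1.31 CPM in the WT/D257A mouse and 0.861 to 1.97 CPM in the mutators (median 1.51). The groups overlapped, and the log2 fold change was 0.16 ± 0.20 (SE). Cxcr4 rested on only 32 to 220 counts per mouse, so that a change of the size seen for Cx3cl1 would lie near its standard error. Cxcr7 (ENSMUSG00000044337, chr1:92100555-92113326, plus strand) held 11.6, 9.98 and 12.03 CPM in the WT/WT mice, 11.2 CPM in the WT/D257A mouse and 10.9 to 13.1 CPM in the mutators (median 11.6). Its groups overlapped as well, with a log2 fold change of 0.09 ± 0.08 (SE). These small differences moved with single mice, that of Cxcr4 from 0.08 without mouse 239 to 0.36 without mouse 205 and that of Cxcr7 from 0.03 without mouse 239 to 0.12 without mouse 246. Per kb of exon, the ratio of Cxcl12 to Cxcr4 was 7.96 to 12.9 in controls and 13.8 to 35.0 in mutators. That of Cxcl12 to Cxcr7 was 1.69 to 2.68 and 2.94 to 6.83, while that of Cxcr7 to Cxcr4 overlapped between the groups.

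The ligands of neurons, Cx3cl1 and Cxcl14, had lower values in the mutators. Cx3cl1 (ENSMUSG00000031778, chr8:97295909-97306323, plus strand) held 538, 590 and 601 CPM in the WT/WT mice and 617 CPM in the WT/D257A mouse. The mutators ranged from 428 CPM in mouse 207 to 564 CPM in mouse 249, with a median of 489 CPM. The groups overlapped, since mouse 249 lay above WT/WT mouse 205, and the other 6 mutators lay below every control. The log2 fold change was -0.25 ± 0.06 (SE), from 586 ± 34.3 CPM (SD, n = 4) to 493 ± 42.3 CPM (SD, n = 7).

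Cxcl14 (ENSMUSG00000021508, chr13:56390008-56397912, minus strand) held 71.4, 75.7 and 76.0 CPM in the WT/WT mice and 75.2 CPM in the WT/D257A mouse. The mutators ranged from 51.9 CPM in mouse 248 to 69.7 CPM in mouse 217, with a median of 63.6 CPM. All 7 mutators lay below all 4 controls, by a log2 fold change of -0.24 ± 0.06 (SE). Without mouse 248 the mutator mean was 65.2 ± 2.87 CPM (SD, n = 6), against 63.3 ± 5.67 CPM (SD, n = 7) with it. Of the neuron markers matched in the table, 0 of 5 passed the test across all genes (edgeR quasi-likelihood, adjusted p under 0.05). An unadjusted p under 0.05 was found for 2, as for 15.8% of all genes. These were Slc17a7, with a log2 fold change of -0.21 ± 0.06 (SE), and Gad2, with 0.14 ± 0.06 (SE). The sum of the 5 overlapped between the groups at 5324 to 5668 CPM in controls and 5180 to 5562 CPM in mutators. Most of that sum was Snap25 and Syt1, with control means of 2205 and 1642 CPM. In bulk RNA, fewer cells of a type and less RNA per cell cannot be told apart.

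Cxcl16 (ENSMUSG00000018920, chr11:70267485-70273486, minus strand) held 1.30, 1.46 and 1.93 CPM in the WT/WT mice, 1.47 CPM in the WT/D257A mouse and 1.28 to 2.31 CPM in the mutators (median 1.83). The groups overlapped, and the log2 fold change was 0.18 ± 0.18 (SE), from 0.10 without mouse 205 to 0.28 without mouse 246. Zmynd15 lies on the opposite strand over part of Cxcl16, and the files do not say whether strand was counted, so that some reads may belong to either gene.

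**Figure D2:**
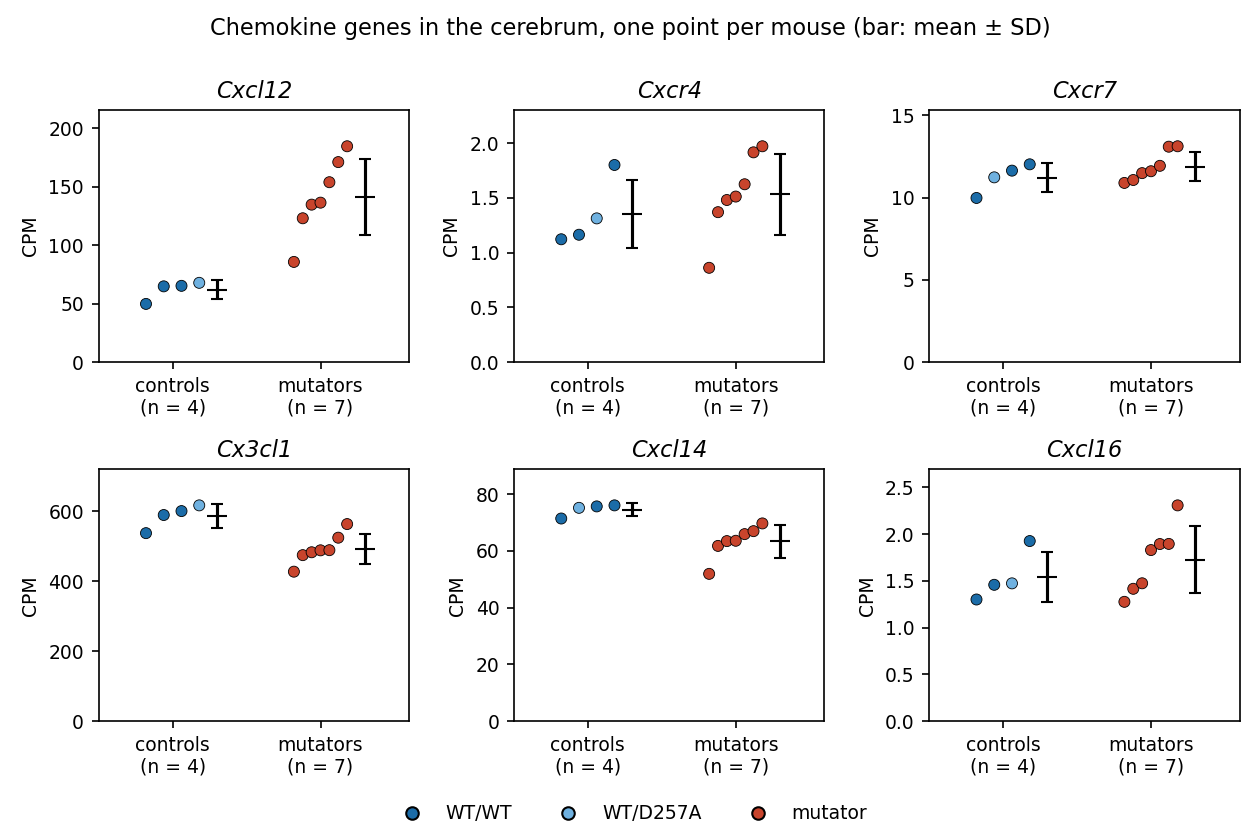
Each point is 1 mouse and gives the CPM of the gene, with the vertical axis from 0, the controls on the left (the WT/D257A mouse in light blue) and the 7 mutators on the right, and the bar gives the mean ± SD. All mutators lie above all controls for Cxcl12 and below them for Cxcl14, and the groups overlap for the other 4 genes.

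Across all genes, 1.24% of 17983 passed the edgeR test, and 2 of the 6 chemokine genes did, Cxcl12 upward and Cx3cl1 downward. Groups that did not overlap were seen for 2.62% of all genes and for 2 of the 6. These were Cxcl12, upward as in 1.2% of all genes, and Cxcl14, downward as in 1.42%. These counts follow from how the genes were chosen. The call for Cxcl12 was lost when any 1 of mice 211, 236, 237, 239, 240 or 246 was left out, with log2 fold changes of 1.17, 1.14, 1.23, 1.21, 1.22 and 1.10. The call for Cx3cl1 was lost without any 1 of mice 211, 217, 237, 239, 240, 246 or 248, with log2 fold changes from -0.25 to -0.22.

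Levels of different genes were compared per kb of the union of exons. In controls the order was Cx3cl1 (158 CPM per kb), Cxcl14 (40.9), Cxcl12 (7.57), Cxcr7 (3.35), Cxcr4 (0.746) and Cxcl16 (0.510). Each level was separated from the next over the 4 controls except Cxcr4 and Cxcl16, whose ranges of 0.620 to 0.996 and 0.431 to 0.638 CPM per kb overlapped. The same order and separation held in the mutators, in which Cxcl12 reached 17.3 CPM per kb. The ratio of Cx3cl1 to Cxcl12 per kb was thus 18.3 to 26.6 in controls and 5.84 to 11.0 in mutators. Over its control mean, Cx3cl1 lay at percentile 99.03 of the CPM of all genes tested, Cxcl12 at 78.4 and Cxcr4 at 21.3.

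The exon bins placed most of the additional Cxcl12 reads in the far last exons. Bin 9, which only Cxcl12-003 contains, held 11.2 ± 2.82 CPM in WT/WT mice (SD, n = 3) and 32.0 ± 7.44 CPM in mutators (SD, n = 7), a ratio of 2.85. Bin 10, shared by Cxcl12-002 and Cxcl12-003, held 14.2 ± 2.57 CPM and 38.5 ± 9.87 CPM, a ratio of 2.71. Bin 6, at the end of Cxcl12-001 and also part of the non-coding Cxcl12-004, held 8.50 ± 0.47 CPM and 10.9 ± 1.75 CPM, a ratio of 1.28.

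The groups did not overlap in CPM for bins 9 and 10. Of the 8 Cxcl12 bins with enough counts to test, 6 did not overlap and all 6 were higher, against 2.22% of all bins in either direction and 1.06% upward. For bin 6 they did, since mutator 207 at 8.12 CPM lay within the WT/WT values of 8.01, 8.57 and 8.94 CPM. Bins 3 to 5, which every transcript contains, held 7.97 ± 0.97 CPM in WT/WT mice and 14.5 ± 2.85 CPM in mutators, a ratio of 1.82. Per kb of bin, WT/WT mice held 5.70 CPM in bin 6, 4.58 in bin 9 and 5.11 in bin 10, and mutators held 7.30, 13.0 and 13.8. Bin 7, covered only by the retained-intron transcript, lay at 0.622 ± 0.22 and 1.65 ± 0.53 CPM over its 1016 bases, and its groups overlapped.

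Within each mouse, the count in bin 9 divided by that in bin 6 was 1.62, 1.49 and 0.893 in WT/WT mice 205, 239 and 246. It ran from 2.34 in mutator 207 through 2.66, 2.86, 2.94, 3.01 and 3.03 to 3.59 in mutator 236. The groups did not overlap, and mouse 207, the mutator with the least Cxcl12, had the ratio nearest to the controls. The ratio of bin 10 to bin 9 overlapped between the groups at 1.19 to 1.42 and 1.15 to 1.24. Bin 10 belongs to both Cxcl12-002 and Cxcl12-003, and the counts were not scaled to the bin lengths of 2784 and 2455 bases. The ratio therefore does not give the level of Cxcl12-002 relative to Cxcl12-003.

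**Figure D3:**
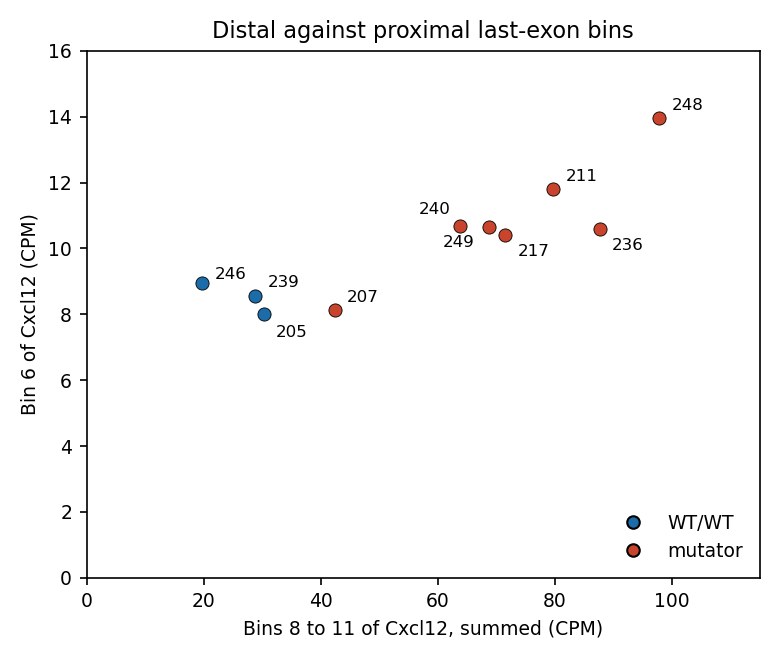
Each point is 1 mouse, labeled by its number, with the summed CPM of Cxcl12 bins 8 to 11 on the horizontal axis and the CPM of bin 6 on the vertical axis, both from 0. The 3 WT/WT mice lie at 19.7 to 30.3 CPM in bins 8 to 11 and the 7 mutators at 42.3 to 97.8 CPM, whereas bin 6 runs from 8.01 to 8.94 CPM and from 8.12 to 13.9 CPM.

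As a share of all Cxcl12 bin counts, bin 6 was 19.9 ± 4.23% in WT/WT mice (SD, n = 3) and 11.1 ± 1.32% in mutators (SD, n = 7). The WT/WT values were 16.8, 18.3 and 24.7%, and the mutators lay between 8.99 and 13.2%. The share of bins 9 and 11 was 25.5 ± 2.96% and 31.9 ± 0.52%, and that of bin 10 was 32.5 ± 1.38% and 38.1 ± 1.54%. Bin 8, the first 42 bases of the Cxcl12-003 last exon, held 1.81 ± 0.57% and 2.51 ± 0.17%, a difference of 0.70 points that was 0.37 points without WT/WT mouse 246, in which bin 8 had 10 counts. Bins 3 to 5 together held 18.3 ± 0.56% and 14.6 ± 1.16%. Mutators and WT/WT mice did not overlap for any of these 5 sets of bins.

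Because these bins were chosen with earlier results of the same mice known, the shares are a description and carry no p-value. Shares of 1 gene sum to 100%, so a share can be lower while the CPM of the bin is not. They also depend on the weight of each bin. With counts per kb of bin in place of counts, the difference of mutators minus WT/WT mice went from -8.87 to -1.15 points for bin 6. It went from 0.70 to 8.23 for bin 8, which has only 42 bases, and from 6.36 to 4.63 for bins 9 and 11. It went from 5.58 to 1.46 points for bin 10, from -3.78 to -0.94 for bins 3 to 5 and from -0.16 to -12.2 for bin 2, which has only 3 bases. The directions were the same on both scales.

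**Figure D4:**
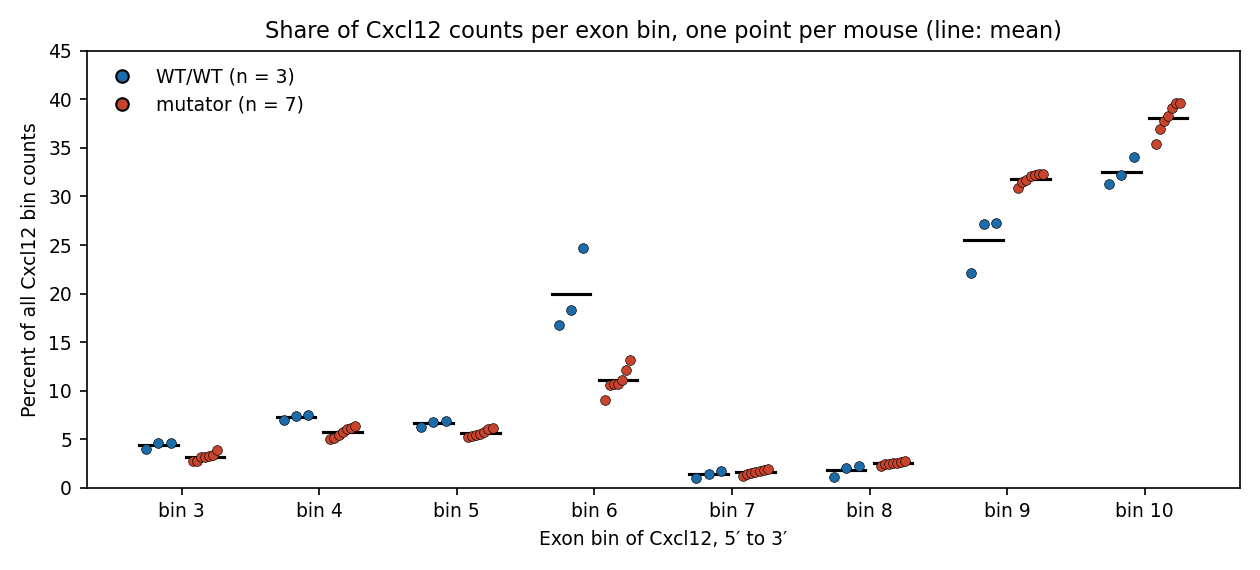
Each point is 1 mouse and gives the percent of all Cxcl12 bin counts that fell in the bin, for bins 3 to 10 from 5′ to 3′, with the 3 WT/WT mice in blue, the 7 mutators in red and a line at each mean. The groups overlap only for bin 7, with bin 6 lower in the mutators (9.0 to 13.2%) and bins 8 to 10 higher.

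In a test of usage across all 206930 bins (edgeR diffSpliceDGE), which asks whether a bin departs from the other bins of its gene, 0.0237% of bins passed an adjusted p of 0.05, and 0 of the 8 Cxcl12 bins tested did. Bin 6 alone had an unadjusted p under 0.05, as did 1.9% of all bins. Its usage log2 fold change was -0.83 ± 0.20 (SE). Without mutator 207 it was -0.86 and bin 6 was called, and limma diffSplice called 0 Cxcl12 bins. Shares whose groups did not overlap were found for 1.4% of all bins tested and for 7 of the 8 Cxcl12 bins. Bins 3 to 6 were lower, as were 0.682% of all bins, and bins 8 to 10 were higher, as were 0.716%.

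No such difference was detected in the other 5 chemokine genes. Of their 39 bins, 24 were tested, and 0 were called, 0 had an unadjusted p under 0.05 and 0 had shares that did not overlap between the groups. As a check of coverage along transcripts over 9019 genes, the median gene had 65.1 to 67.0% of its counts in the bins on its 3′ side in WT/WT mice and 65.4 to 67.0% in mutators, so that the ranges overlapped. Cxcl12 bins summed to 60.9 to 64.3% of the gene count in every mouse, in ranges that overlapped.

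Markers of the vascular and meningeal cell types that make Cxcl12 shared no direction. Of the endothelial markers, 0 of 10 passed, against 1.24% of all genes. By edgeR quasi-likelihood, 5 of the 10 had an unadjusted p under 0.05, against 15.8% of all genes. The log2 fold changes of the 10 ran from -0.29 for Tie1 to 0.84 for Kdr, with a median of -0.01. Their sum was 252 to 304 CPM in controls and 256 to 336 CPM in mutators. Of the meningeal fibroblast markers, 0 of 7 passed (2 at an unadjusted p under 0.05), with sums of 55.4 to 67.2 and 55.2 to 72.1 CPM. Of the mural markers, 1 of 8 passed, Abcc9 at a log2 fold change of 0.64 (3 at an unadjusted p under 0.05), against 0.439% of all genes called higher, and Acta2 had -0.53. The mural sums were 162 to 171 and 166 to 198 CPM. All of these sums overlapped between the groups, and their part in the Cxcl12 difference was not tested.

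Among the other 37 chemokine ligands, 15 passed the filter on low counts, and 22 did not, with at most 29 counts in any mouse. Of the 15, 1 was higher and 1 was lower, 7 had an unadjusted p under 0.05 (edgeR quasi-likelihood), against 15.8% of all genes, and the median log2 fold change was 0.35. Ppbp and Ccl22 passed the filter only through the mutators, with at most 0.182 and 0.115 CPM in any control. The count and the median therefore lean toward higher values, and nothing is read from them. Over all genes, 0.439% were called higher and 0.801% lower. Ppbp, a platelet chemokine, had 1 to 5 counts per control and 15 to 65 per mutator. Over the pooled counts of 10 and 251, scaled to library size, this was a ratio of 15.1 (95% exact interval 8.08 to 31.9, counting error only). The fitted log2 fold change was 3.83 ± 0.63 (SE). Because Ppbp passed the filter only through the mutators, its edgeR call is not independent of that difference, and no p-value is given. The platelet tubulin Tubb1 had 0 to 1 counts per control and 2 to 34 per mutator, so it also passed the filter only through the mutators. It was the 1 of 5 tested platelet markers that passed the edgeR test, and nothing is read from that count. Of the 5, 4 had an unadjusted p under 0.05 by edgeR, against 15.8% of all genes. Of those, Gp9 had a log2 fold change of 1.18, Itga2b of 0.44 and Gp1bb, the most abundant, of -0.37. The summed platelet markers overlapped between the groups at 9.42 to 12.4 and 8.80 to 13.3 CPM. Most of that sum was Gp1bb, with a control mean of 6.22 CPM, against 0.151 CPM for Gp9 and 0.00605 CPM for Tubb1. The part of these markers in the Ppbp difference was not tested.

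Ccl27a, a chemokine of epithelia, was lower at 48.8 ± 2.86 CPM in controls (SD, n = 4) and 40.6 ± 2.33 CPM in mutators (SD, n = 7). Its fitted log2 difference was -0.27 ± 0.05 (SE), with adjusted p = 0.0172 by edgeR. Ccl27a overlaps Il11ra1 on the opposite strand and has near-identical copies, so its counts are uncertain, and it was no longer called without mouse 237 or without mouse 246.

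Of the 22 other receptors, 12 passed the filter, and 0 passed the test by edgeR or by DESeq2. By edgeR, 2 of the 12 had an unadjusted p under 0.05, against 15.8% of all genes. Their median log2 fold change was -0.10. Cx3cr1, the microglial receptor of Cx3cl1, came nearest, with 46.5 ± 4.55 CPM in controls (SD, n = 4) and 40.3 ± 2.46 CPM in mutators (SD, n = 7), a fitted log2 difference of -0.20 ± 0.06 (SE) and adjusted p = 0.104 by edgeR. Beside it, the microglial markers gave 0 of 8 past the test and 3 of 8 at an unadjusted p under 0.05 by edgeR (Csf1r, Aif1 and Itgam). Of their log2 fold changes 8 of 8 were below 0, with a median of -0.09 against 0.0014 over all genes. The 8 markers belong to 1 cell type and are not separate observations. Their sums overlapped at 313 to 389 and 297 to 366 CPM. Ccr1, a receptor of myeloid cells, had a log2 fold change of 1.11 ± 0.48 (SE) on 4 to 42 counts per mouse, with adjusted p = 0.265 by edgeR. Ccr10, the receptor of Ccl27a, had 0.41 ± 0.25 (SE) and adjusted p = 0.444 by edgeR.

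Of 17 genes that process chemokines or carry their signal, 0 passed by edgeR and 0 by DESeq2, with a median log2 fold change of -0.04. By edgeR, 3 of the 17 had an unadjusted p under 0.05, against 15.8% of all genes. The nearest were the inhibitory G protein subunit Gnai2 (log2 fold change -0.14, edgeR adjusted p = 0.225), Hmgb1, a nuclear protein that binds Cxcl12 outside cells (0.10, edgeR adjusted p = 0.297), and the receptor kinase Adrbk1 (-0.11, edgeR adjusted p = 0.313).

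**Figure D5:**
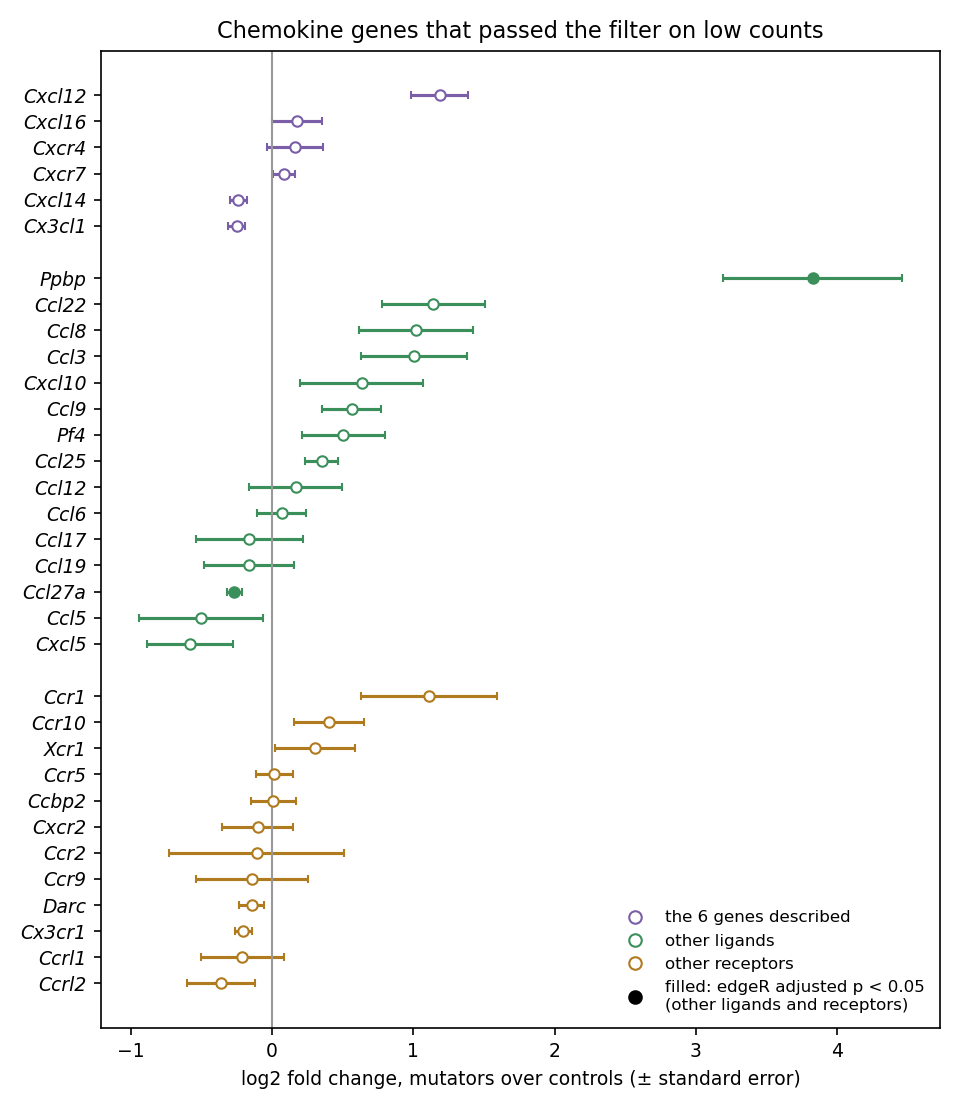
Log2 fold changes of mutators over controls with standard errors are shown for the 6 genes, the 15 other ligands and the 12 other receptors that passed the filter on low counts, ordered within each class, with filled points for other ligands and receptors at an edgeR adjusted p under 0.05. Cxcl12 stands at 1.19, and only Ppbp at 3.83 and Ccl27a at -0.27 are filled. Ppbp passed the filter only through the mutators.

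Within the groups, the other 5 genes were each compared with Cxcl12, and pairs among those 5 were not examined. With each mouse expressed as the deviation of its log2 CPM from its group mean, Pearson's r with Cxcl12 over the 11 mice was 0.48 for Cx3cl1, 0.33 for Cxcr4, 0.27 for Cxcl16, -0.30 for Cxcr7 and -0.33 for Cxcl14. Without the 2 mice whose Cxcl12 lay farthest from their group mean, r was 0.12, 0.24, 0.02, -0.31 and 0.11 in the same order. The values for Cx3cl1, Cxcl16 and Cxcl14 thus rested on these 2 mice. Over 14699 genes of at least 1 CPM the median r was -0.02 and the 99th percentile 0.76. The 5 genes most like Cxcl12 were Gm13111 (r = 0.93, Spearman's rho = 0.82), Gm10996 (0.92, 0.80), H2-T24 (0.91, 0.87), Cml5 (0.91, 0.78) and Col8a1 (0.91, 0.81), and their r was 0.75 to 0.84 without those 2 mice. These correlations share the 11 libraries and their depths, and they describe these mice only.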

How the data were processed

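Per the labels and the study's methods, the authors aligned 100-bp paired-end reads to mm9 with TopHat2 (2.0.6) and Bowtie2, counted reads per gene with HTSeq, and deposited raw counts per gene and per exon bin. Reads in no bin, 20.6 to 23.4% of counts, were left out. Their tables of fold changes and p-values were not used, and all per-sample columns were mapped (0 left). Mutator 248, whose counts exceed its listed reads, was kept.

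Gene counts (36666 genes) were filtered with filterByExpr, scaled by TMM and tested with the edgeR quasi-likelihood test (edgeR 4.0.16, R 4.3.3), 7 mutators against 4 controls, with Benjamini-Hochberg adjustment over 17983 genes and a threshold of 0.05. DESeq2 1.42.0 was an alternative. Bins (7 against 3 WT/WT) were tested with diffSpliceDGE and limma 3.58.1 diffSplice. Shares of Cxcl12 bins are given without the permutation test that had been planned, since the bins were chosen with results known. The scripts were first tested on simulated counts. Exon structure came from GENCODE M1 on NCBIM37, later than the authors' annotation but equal in bin number for all 6 genes.

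The 6 genes and every list were chosen with earlier results of these data known. Named were the 6 genes, genes of the ligand, receptor and processing lists past the threshold (otherwise the 3 with the smallest unadjusted p), the 5 genes most like Cxcl12, and Polg. Other genes named were picked after their values were seen. Examples are Kdr, Tie1, Abcc9, Acta2, Tubb1, Gp9, Itga2b, Gp1bb, Csf1r, Aif1, Itgam, Slc17a7, Gad2, Snap25 and Syt1. The choroid plexus, astrocyte and oligodendrocyte marker lists each had 0 of 5 genes past the edgeR threshold, and their sums overlapped between the groups. In each list, 2 of 5 genes had an unadjusted p under 0.05 by edgeR, against 15.8% of all genes.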

Additional observations from a re-analysis of the deposited data

Results flagged for a closer look

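Cxcl12 in the controls stood out for 1 mouse. WT/WT mouse 246, the library with the fewest counts, held 49.8 CPM, against 64.8 to 67.8 CPM in the other 3 controls, a gap of 0.833 of the group's range. This mouse also had the highest bin 6 share (24.7%). Among the 20 groups of values examined this way, 1 such case would be met by chance. Without this mouse the log2 fold change of Cxcl12 was 1.10.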

How the results depend on the processing

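The log2 fold change of Cxcl12 stayed between 1.10 and 1.28 in 17 alternatives (other scalings, DESeq2, filters, depth as a covariate, each mouse left out) and was called in 11. That of Cx3cl1 ran from -0.29 to -0.22 (called in 10) and that of Cxcl14 from -0.26 to -0.19 (called in 5), and no chemokine gene of the 6 changed direction. The genes were chosen with this contrast known, so nothing is read from these calls. In the main fit, 1.24% of all genes were called. Leaving out 1 mouse at a time, 0 to 3 of the 6 were called, 0 without mouse 211, 237, 239, 240 or 246 and 1 without mouse 236 or 248, ligands called lower ran from 0 to 1, and Cxcl12 bins called ran from 0 to 1. The cause was not tested. The bin 2 share difference ran from -0.20 to -0.0904 percentage points over the mice left out. With counts per kb of bin, the differences were -12.2 points for bin 2 and 8.23 for bin 8. These bins have only 3 and 42 bases, which makes their values per kb large. The differences were -0.94 for bins 3 to 5, -1.15 for bin 6, 4.63 for bins 9 and 11 and 1.46 for bin 10. All of these were in the same direction as with counts. With the longest transcript as the length, control levels were 11.0 CPM per kb for Cxcl12, 3.66 for Cxcr7 and 177 for Cx3cl1. No paired analysis was possible because the labels give no number that groups share. Counts of 32 to 220 for Cxcr4 and 53 to 159 for Cxcl16 limit what could be seen for them.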
